A study of Homo sapiens with 8 samples.

Results

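Interferon-stimulated effector genes are the genes that cells switch on in response to interferon and whose products act on viruses or on infected cells. The module was given as a list of 40 gene symbols, chosen with earlier results of these data known. The probes of a gene were found on the array through their RefSeq accessions. Of the 40 members, 38 had a probe (45 probes in all), among 22439 genes named on the array. *IFI27* and *SAMD9L* had none. All 38 were above background on at least 1 of 8 arrays, and 36 could be tested in the *miR-150-3p* arrays.

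Interferons are secreted proteins that act through receptors on the cell surface, and the JAK kinases behind the receptors pass the signal on to a transcription factor complex that contains IRF9. The complex binds the interferon-stimulated response element (ISRE) in the promoters of target genes, and the response can be started by double-stranded RNA, DNA in the cytosol, or interferon from neighbouring cells. The members studied here are the downstream end of this pathway: proteins that bind viral RNA, block entry or release of particles, attach the ubiquitin-like protein ISG15 to other proteins, or act on nucleotides, translation and cell death.

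The samples were human lung cancer cell lines, each array setting treated RNA (Cy5, red) against control RNA of the same line (Cy3, green). EBC-1 and SK-MES-1, both from lung squamous cell carcinoma (LUSQ), were transfected with *miR-150-3p*, with 1 array each. SBC-3, from small cell lung cancer, was transfected with siDONSON-1, siDONSON-2 or siDONSON-3, different siRNAs against *DONSON*, with 1 array for each. A549, from lung adenocarcinoma, had *LOXL2* edited with CRISPR/Cas9 and gave 3 arrays, GE1 to GE3. The control of the transfections is called both mock and not transfected in the labels, so whether it received a duplex or the transfection reagent is not known, and the A549 control had no genome editing. The labels do not say whether GE1 to GE3 are clones, whether the siRNA arrays came from separate cultures, or whether the 3 controls of a line are 1 RNA, so p-values measure only the spread between these arrays, which may be technical.

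All 8 arrays were on 1 slide, with no dye swap. Between 41.1% and 46.4% of the spots were well above background in the control channel, and between 48.5% and 56.2% in the treated channel. *DONSON* was lower in the siDONSON arrays (mean log2 ratio -2.02, limma adjusted p = 0.00168) and *LOXL2* in the edited arrays (-2.58, adjusted p = 0.00126). Markers of the stated tissues were partly absent: the squamous genes *KRT5*, *KRT6A* and *DSG3* were not above background in the control of any line, the 2 squamous lines included, and neither were the neuroendocrine gene *INSM1* in SBC-3 or the lung genes *NKX2-1* and *SFTPB* in A549, while *NEUROD1* and *SYP* were above background in SBC-3. Each array held RNA of 1 cell line. In such bulk RNA, fewer cells with a transcript and less of it per cell cannot be told apart.

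Most of the member promoters that could be read held the ISRE core. RefSeq windows of 250 bases upstream of the start (GRCh38.p14) were found for 33 of the 40 members, and not for *IFIT2*, *IFITM2*, *MX2*, *GBP2*, *USP18*, *TRIM22* and *LAMP3*. The ISRE core, written GAAANNGAAA and searched on both strands with overlaps counted, was in 20 of 33 member windows (60.6%) and in 1061 of 35116 windows of all promoters (3.02%). The gamma-activated site (GAS), written TTCNNNGAA, was in 6 of 33 (18.2%) and in 2306 of 35116 (6.57%). The following stretches belong to the 6 members with a core that had the highest mean log2 ratios in the *miR-150-3p* arrays. They are printed 5′ to 3′ on the strand of the gene, with the core in capitals.
IFITM1, chr11:313975-314034, plus strand: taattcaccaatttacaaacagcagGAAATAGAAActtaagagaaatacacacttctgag
IFIT3, chr10:89327816-89327909, plus strand: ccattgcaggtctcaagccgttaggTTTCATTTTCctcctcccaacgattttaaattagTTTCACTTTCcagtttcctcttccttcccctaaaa
RTP4, chr3:187368318-187368384, plus strand: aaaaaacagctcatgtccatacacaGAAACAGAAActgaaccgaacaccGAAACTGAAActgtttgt
IFIT1, chr10:89392482-89392554, plus strand: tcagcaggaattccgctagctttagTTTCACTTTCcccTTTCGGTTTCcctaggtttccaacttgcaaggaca
GBP1, chr1:89065301-89065360, minus strand: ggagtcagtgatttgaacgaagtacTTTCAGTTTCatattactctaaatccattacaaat
IFI6, chr1:27672251-27672373, minus strand: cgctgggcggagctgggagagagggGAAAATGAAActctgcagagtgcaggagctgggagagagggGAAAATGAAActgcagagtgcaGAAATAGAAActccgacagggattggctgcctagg
*IFIT1*, *IFIT3* and *RTP4* each held 2 cores and *IFI6* held 3, all within the window, whereas *IFITM1* and *GBP1* held 1 each. On *IFIT1*, *IFIT3* and *GBP1* the core lies on the other strand, so that it is printed as its reverse complement. A match of letters is a description of the sequence and not evidence of binding. The window read for *MX1* held no core, and *MX1* had the highest mean log2 ratio of all members in the *miR-150-3p* arrays. Only the first listed window of each member was read, so a core at another start or further upstream would be missed. The count over all promoters took every window. Over the 17 tested members with a core, the median of the mean log2 ratios in the *miR-150-3p* arrays was 0.65. Over the 12 tested members with a window without the core it was 0.59. Over the 7 members with no window, whose promoters were not read, it was 1.03.

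In the *miR-150-3p* arrays, members were higher after transfection in both squamous lines, and none was called lower. The highest mean log2 ratios past the threshold belonged to *MX1*, a GTPase that traps viral nucleocapsids, *IFITM1*, a membrane protein that hinders virus entry, *IFIT3* and *IFIT1*, which bind viral RNA as a complex, and at a lower level *USP18*, which removes ISG15 from proteins and damps signalling at the interferon receptor. These 5 of 36 tested members were called higher (limma, adjusted p below 0.05), against 2.47% of all 14229 genes tested, and 0 were called lower, against 2.9% of all genes. At an unadjusted p below 0.05, 22 members were higher (15.1% of all genes) and 0 lower (14.9% of all genes). The mean log2 ratio was above 0 in 36 of 36 tested members and in 53.9% of all genes, and its median was 0.63 over the members and 0.04 over all genes. *BST2* and *EPSTI1* were not tested there, because SK-MES-1 gave no value. Leaving out 1 array changed the count, and with it the share of all genes called higher. Without EBC-1, 0 members and 0 genes of any kind were called higher, without SK-MES-1 10 members (8.86% of all genes), without siDONSON-3 3 members (1.25%), and without any 1 of the edited arrays 2 members, *IFITM1* and *MX1* (0.155% to 0.211%). With the spread of the 2 *miR-150-3p* arrays alone, 0 genes of any kind were called.

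**Figure D1:**
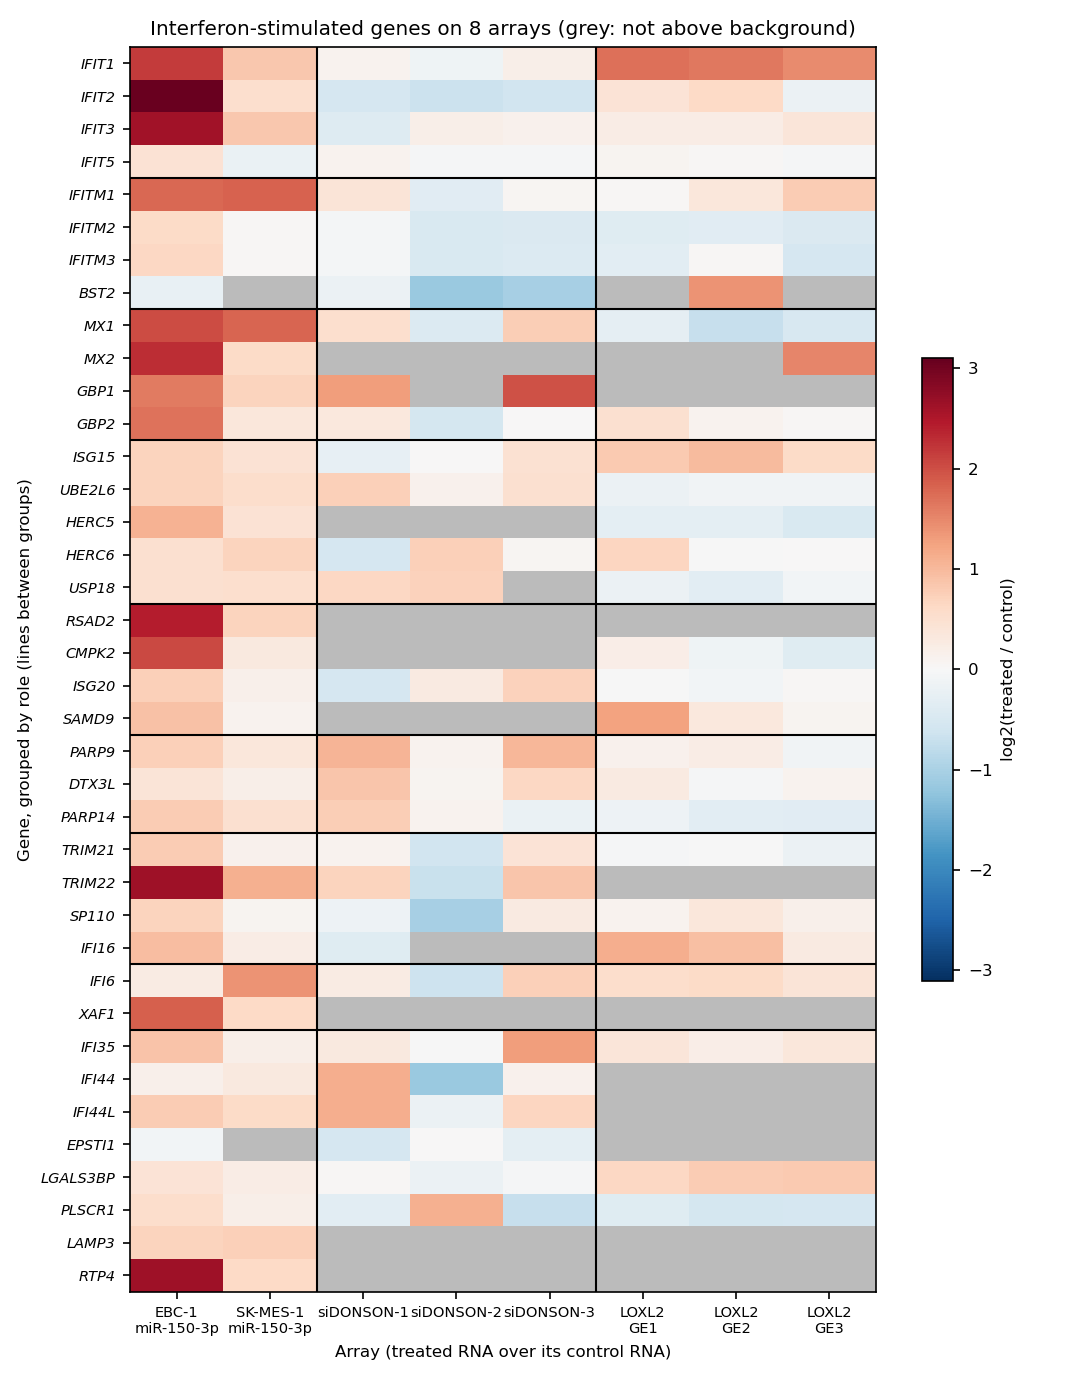
Log2 ratio of treated over control RNA for the 38 members with a probe (rows, grouped by role) on the 8 arrays (columns); red is higher and blue lower after treatment, and grey marks values not above background in either channel. The EBC-1 column is red for 36 of 38 members and the SK-MES-1 column for 35 of 36, while the siDONSON and *LOXL2* columns hold both colours.

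The values were larger in EBC-1. There the median log2 ratio over 38 members was 0.78, the highest value was 3.07, and 14 members were above 1, compared with 5.96% of all genes. In SK-MES-1 the median over 36 members was 0.48, the highest value was 1.82, and 4 members were above 1, compared with 2.57% of all genes. EBC-1 had 36 members above 0 and SK-MES-1 had 35, which left *BST2* and *EPSTI1* below 0 in EBC-1 and *IFIT5* in SK-MES-1. A total of 32 EBC-1 members and 19 SK-MES-1 members lay above 0 by more than 1.96 times the error that the scanner software gives for a single array, as did 19% and 7.4% of all genes. That error covers technical noise within an array. With 1 array for each line, whether the lines differ was not tested.

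A gene that passes the background filter only in the treated channel is valued because it is high there. This was so for 2 members in EBC-1 (*HERC5* and *TRIM22*) and 2 in SK-MES-1 (*RSAD2* and *TRIM22*). Where both channels had to be above background, 34 of 36 members were above 0 in EBC-1 and 33 of 34 in SK-MES-1, against 50.6% and 48.7% of all genes. With no filter at all the members above 0 were 36 of 38 and 35 of 38, against 45.1% and 43.3% of all genes. With another background correction and loess, the medians of the members were 0.52 in EBC-1 against 0.21 in SK-MES-1.

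**Figure D2:**
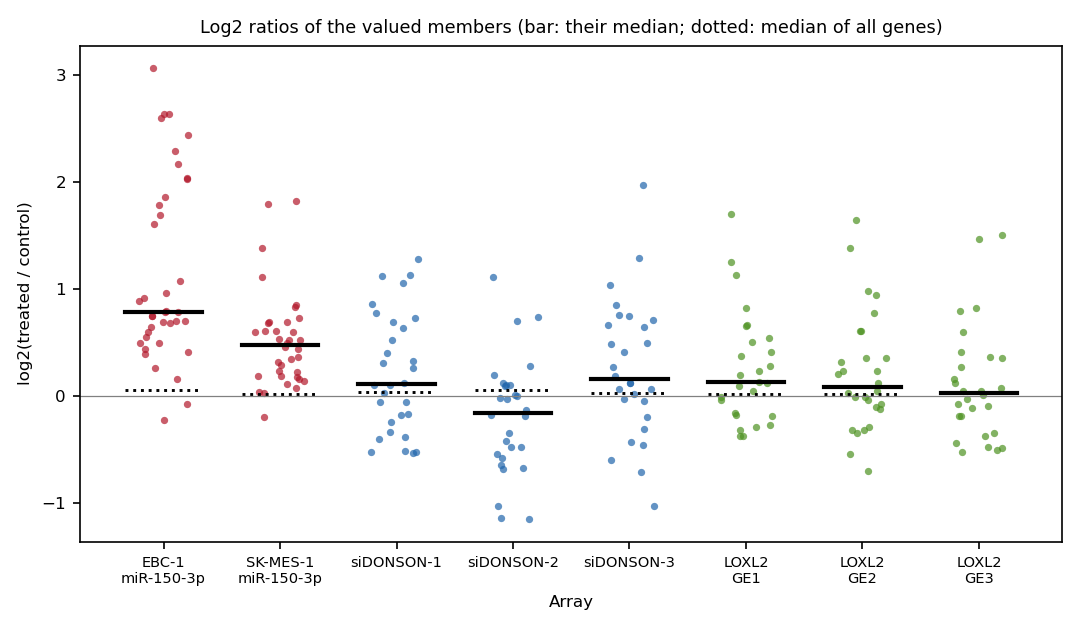
Log2 ratios of the valued members (points) on each array, with their median (solid bar) and the median of all genes (dotted bar). The solid bars are at 0.78 and 0.48 in EBC-1 and SK-MES-1 and between -0.16 and 0.16 on the other 6 arrays, and the dotted bars stay close to 0.

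The IFIT proteins bind viral RNA and block its translation. *IFIT1* had log2 ratios of 2.17 in EBC-1 against 0.85 in SK-MES-1, of 0.10, -0.14 and 0.19 with siDONSON-1, -2 and -3, and of 1.70, 1.64 and 1.47 in the edited A549 arrays. It was high in 2 of the 3 groups, and the siDONSON values lay around 0, below every other array. The group means were 1.51 (SE 0.26, adjusted p = 0.0297, n = 2), 0.05 (SE 0.22, n = 3) and 1.61 (SE 0.22, adjusted p = 0.00507, n = 3) by limma. Each SE, here and below, rests on the spread pooled over the groups and not on the arrays of 1 group. The 2 *miR-150-3p* values of *IFIT1* alone had a standard deviation of 0.94, and with the spread of that group alone the limma adjusted p was 0.347. For *IFIT3* that standard deviation was 1.3. *IFIT1* rose 2.85-fold with *miR-150-3p* and 3.04-fold with *LOXL2* edited. With another background correction (normexp, then loess) the mean in the edited arrays was 0.85 (limma adjusted p = 0.0301).

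*IFIT3*, which stabilises IFIT1 on RNA, had log2 ratios of 2.60 and 0.83 in the *miR-150-3p* arrays, -0.40, 0.19 and 0.12 in the siDONSON arrays, and 0.23, 0.24 and 0.37 in the edited arrays. Both *miR-150-3p* arrays were above all others, with EBC-1 far above SK-MES-1. Its mean of 1.71 (SE 0.35, 3.28-fold) passed the limma test there (adjusted p = 0.0402). It did not pass with normexp and loess (1.26, limma adjusted p = 0.0577), and it passed in 2 of 8 fits without 1 array.

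*IFIT2*, which has RNA-binding and pro-apoptotic roles, showed the highest single value of any member, a log2 ratio of 3.07 in EBC-1, but only 0.52 in SK-MES-1. With siDONSON it was at -0.53, -0.67 and -0.60, and in the edited arrays at 0.41, 0.61 and -0.19. The 2 lines lay far apart, and its mean of 1.80 (SE 0.49) did not pass the threshold (limma, adjusted p = 0.0692). Its 2 probes gave 3.32 and 2.82 in EBC-1 and 0.66 and 0.39 in SK-MES-1. *IFIT5*, which binds single-stranded RNA, was at 0.44 and -0.20, between -0.05 and 0.10 with siDONSON and between -0.03 and 0.09 in the edited arrays, the lowest mean of a tested member in the *miR-150-3p* arrays (0.12, SE 0.15).

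Among the membrane proteins, *IFITM1* gave nearly the same value in both squamous lines. Its log2 ratios were 1.79 and 1.82 in the *miR-150-3p* arrays, compared with 0.40, -0.34 and 0.06 with siDONSON and 0.05, 0.36 and 0.80 in the edited arrays. Its 2 probes gave 1.74 and 1.83 in EBC-1 and 1.78 and 1.86 in SK-MES-1, and no array of another group reached either line. The mean was 1.80 (SE 0.21, 3.49-fold, limma adjusted p = 0.0128), and with normexp and loess in place of the software's own processing it was 1.12 (adjusted p = 0.0253). In A549 the control was close to background, and on 1 of the 3 edited arrays no counted probe of it was above background in the control channel.

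*IFITM2* and *IFITM3*, which act in endosomes, had lower ratios. *IFITM2* was at 0.60 and 0.03 in the *miR-150-3p* arrays, -0.06, -0.48 and -0.46 with siDONSON, and -0.37, -0.35 and -0.44 in the edited arrays. *IFITM3* was at 0.65 and 0.03, -0.06, -0.47 and -0.43, and -0.32, 0.05 and -0.52. The genes are close paralogs and their values ran alike on the first 5 arrays, and whether their probes share RNA was not tested. *BST2* (tetherin), which holds budding particles at the membrane, was at -0.23 in EBC-1 and had no value in SK-MES-1, and with siDONSON it was at -0.18, -1.15 and -1.03, the lowest mean of the module there (-0.79, SE 0.22, limma adjusted p = 0.107, fitted with 2 residual degrees of freedom because SK-MES-1, GE1 and GE3 had no value).

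Of the GTPases, *MX1* had log2 ratios of 2.03 in EBC-1 against 1.80 in SK-MES-1. With siDONSON it was at 0.52, -0.42 and 0.76, and in the edited arrays at -0.27, -0.71 and -0.49. The 2 *miR-150-3p* arrays lay above all others and the edited arrays were all below 0. The mean in the *miR-150-3p* arrays was 1.91 (SE 0.26, 3.76-fold), the highest of the module (limma, adjusted p = 0.0185), and in the edited arrays it was -0.49 (SE 0.21, adjusted p = 0.162). In SBC-3 the control level of *MX1* was above background on 1 of 3 arrays only, so the siDONSON ratios of 0.52 and 0.76 are lower bounds, at least 1.43-fold and 1.69-fold.

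*MX2*, a nuclear envelope GTPase, was at 2.30 and 0.60 in the *miR-150-3p* arrays and had no value in SBC-3 and 1 in A549, 1.50 on GE3 over a control not above background. Both guanylate-binding proteins, which attack the membranes around intracellular pathogens, had higher values in EBC-1 than in the SK-MES-1 array. *GBP1* was at 1.61 and 0.69 in the *miR-150-3p* arrays, and *GBP2* at 1.70 and 0.36. None of the 3 passed the threshold (means of 1.45, 1.15 and 1.03, limma adjusted p of 0.139, 0.083 and 0.0849). The siDONSON values of *GBP1*, 1.29 and 1.98 on 2 arrays, rest on a control that was not above background.

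ISG15 is attached to other proteins by a chain of enzymes that includes UBE2L6 and HERC5. *ISG15* itself was at 0.70 and 0.44 in the *miR-150-3p* arrays, -0.24, 0.00 and 0.48 with siDONSON, and 0.82, 0.98 and 0.60 in the edited arrays. It was above 0 on every edited array and rose there by a mean log2 ratio of 0.80 (SE 0.15, 1.74-fold, limma adjusted p = 0.0139). In the *miR-150-3p* arrays its mean was 0.57 (SE 0.18, adjusted p = 0.0914).

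*USP18* was at 0.49 in EBC-1 against 0.52 in SK-MES-1, with a mean of 0.51 (SE 0.11, 1.42-fold, limma adjusted p = 0.0477, fitted with 4 residual degrees of freedom because siDONSON-3 had no value). With normexp and loess the mean was 0.26 (adjusted p = 0.0436), and without any 1 array other than siDONSON-2 *USP18* did not pass the threshold. The 2 siDONSON values, 0.63 and 0.70, were as high but rest on a control not above background, and the edited arrays were at -0.19, -0.32 and -0.08. *UBE2L6*, the E2 enzyme, was at 0.70 and 0.53 in the *miR-150-3p* arrays and at 0.73, 0.12 and 0.49 with siDONSON, just above the threshold in both (limma adjusted p of 0.0518 and 0.064). The ligases *HERC5* and *HERC6* were at 1.07 and 0.46, and at 0.49 and 0.68, in the *miR-150-3p* arrays. The control of *HERC5* was not above background in EBC-1, where it was at least 2.06-fold higher.

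Among the genes that act on nucleotides, nucleic acids and translation, EBC-1 again gave the higher values. *RSAD2* (viperin), which makes a chain-terminating nucleotide, was at 2.44 in EBC-1. Its control was not above background in SK-MES-1, where it was at least 1.52-fold higher. *CMPK2*, a mitochondrial nucleotide kinase next to *RSAD2*, was at 2.04 and 0.31, with 1 of its 2 probes not above background on any array. The exonuclease *ISG20* was at 0.75 and 0.15, and *SAMD9*, which restricts poxviruses by acting on translation, at 0.91 and 0.11. None of the 4 passed the threshold (limma adjusted p between 0.117 and 0.34). *RSAD2* was not above background on any SBC-3 or A549 array, so its fit rests on the 2 *miR-150-3p* arrays, with 1 residual degree of freedom, as do those of *MX2* and *XAF1*.

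*PARP9*, *DTX3L* and *PARP14* belong to an ADP-ribosylation machinery. *PARP9* was at 0.75 and 0.35 in the *miR-150-3p* arrays and at 1.06, 0.10 and 1.04 with siDONSON. Its partner, the ubiquitin ligase *DTX3L*, followed the same order with 0.39 and 0.19, and with 0.86, 0.09 and 0.64. Both had high values with siDONSON-1 and siDONSON-3 and values near 0 with siDONSON-2, and both were among the 3 highest means of the siDONSON group, 0.73 (SE 0.19) and 0.53 (SE 0.15), neither past the threshold (limma adjusted p of 0.0606 and 0.0716). The *DTX3L* values of 0.86 and 0.64 rest on a control that was not above background. On siDONSON-2 the 2 probes of *PARP9* gave -0.47 and 0.68, and on siDONSON-1 they gave 0.75 and 1.37. *PARP14* was at 0.80 and 0.50 in the *miR-150-3p* arrays, 0.77, 0.11 and -0.20 with siDONSON and between -0.35 and -0.16 in the edited arrays.

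*TRIM22*, a ubiquitin ligase against retroviruses and influenza virus, was at 2.64 in EBC-1 against 1.11 in SK-MES-1, and at 0.69, -0.68 and 0.85 with siDONSON. Its control was not above background in either squamous line, which makes it at least 1.95-fold higher over the 2 arrays (measured mean 3.67-fold, limma adjusted p = 0.0764, 3 residual degrees of freedom since the edited arrays gave no value). The cytosolic antibody receptor *TRIM21*, the nuclear body protein *SP110* and the DNA sensor *IFI16* were at 0.78, 0.68 and 0.96 in EBC-1 and at 0.14, 0.08 and 0.23 in SK-MES-1. In the edited arrays *IFI16* was at 1.13, 0.94 and 0.27, the highest mean among members that did not pass the threshold there (0.78, SE 0.22, limma adjusted p = 0.0688), again with a control not above background (at least 1.16-fold higher).

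Of the genes tied to mitochondria and cell death, *IFI6* was the member most clearly higher in SK-MES-1 than in EBC-1, with log2 ratios of 1.39 and 0.26. With siDONSON it was at 0.26, -0.65 and 0.75, and in the edited arrays at 0.54, 0.60 and 0.41. *XAF1*, which promotes apoptosis, was at 1.86 in EBC-1 against 0.61 in SK-MES-1 and above background on no other array. Its 2 probes gave 1.84 and 1.88 in EBC-1.

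The remaining members have more varied roles. *RTP4*, a chaperone of membrane receptors that restrains the interferon response, was at 2.64 in EBC-1 against 0.61 in SK-MES-1, and *LAMP3*, a lysosomal membrane protein, at 0.69 and 0.73. Both were above background only in these lines, and their means of 1.62 (SE 0.53) and 0.71 (SE 0.13) were fitted with 1 residual degree of freedom (limma adjusted p of 0.15 and 0.0687). *IFI35* was at 0.89 and 0.18, *PLSCR1*, a phospholipid scramblase, at 0.55 and 0.18, and *IFI44L* at 0.78 and 0.60. *IFI44*, the neighbour of *IFI44L*, stayed at 0.16 and 0.29, among the 3 lowest means of tested members (0.23, SE 0.48), with 1.14, -1.14 and 0.12 under siDONSON. *EPSTI1* was at -0.08 in EBC-1 and at -0.52, 0.01 and -0.31 with siDONSON.

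*LGALS3BP*, a secreted glycoprotein that binds galectins, was at 0.41 and 0.24 in the *miR-150-3p* arrays, 0.03, -0.18 and -0.03 with siDONSON, and 0.65, 0.78 and 0.82 in the edited arrays. The 3 groups did not overlap. The rise in the edited arrays, a mean log2 ratio of 0.75 (SE 0.090, 1.68-fold), passed the test (limma, adjusted p = 0.0032), while the mean of 0.32 (SE 0.11) in the *miR-150-3p* arrays did not (adjusted p = 0.1).

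**Figure D3:**
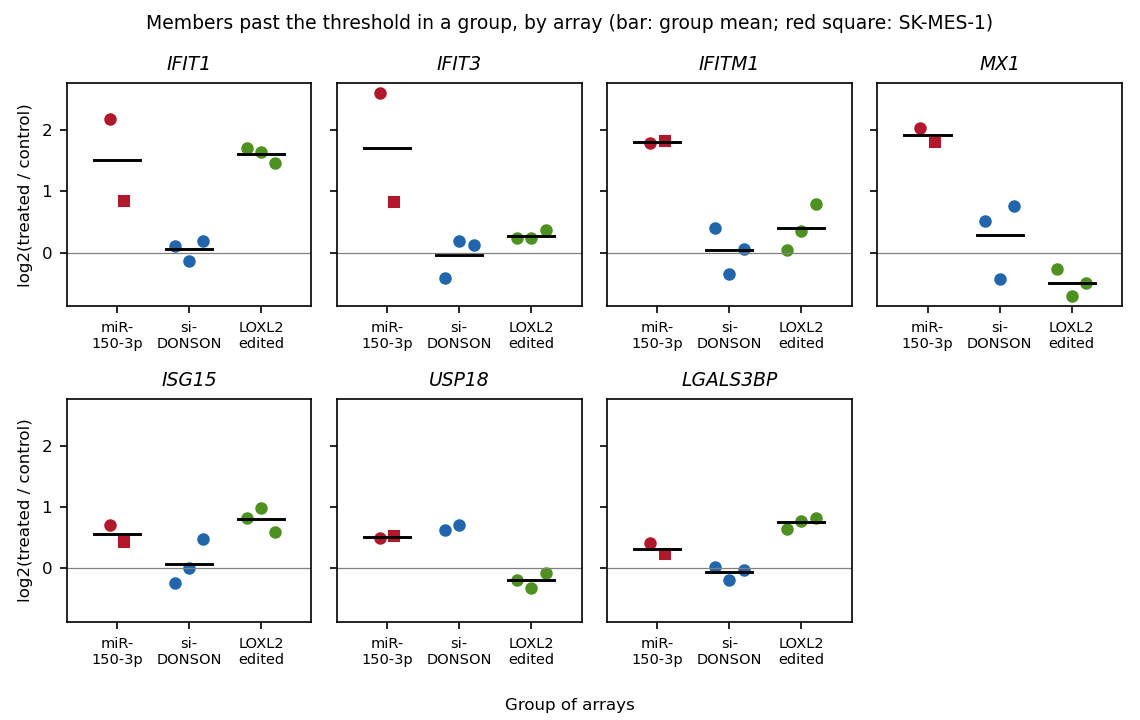
Log2 ratios on each array (points) and group means (bars, where every array of the group had a value) of the 7 members past the threshold in a group; the red square is SK-MES-1. *IFITM1* and *MX1* lie at 1.79 to 2.03 in both squamous lines and at 0.80 or below elsewhere, and *IFIT1* is high in the *miR-150-3p* and edited arrays but between -0.14 and 0.19 with siDONSON.

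With siDONSON, the members had ratios on both sides of 0 and no member passed the test. Of 27 tested members, 0 were called higher (4.01% of all genes) and 0 lower (3.21% of all genes) by limma, and 3 were higher (15.1% of all genes) and 2 lower (11% of all genes) at an unadjusted p below 0.05. The mean log2 ratio was above 0 in 17 of 27 members and in 54.5% of all genes, with a median of 0.04 over the members and 0.03 over all genes. Single values ran from -1.15 to 1.98. The arrays differed among themselves: 18 of 30 valued members were above 0 with siDONSON-1, 11 of 28 with siDONSON-2 and 19 of 28 with siDONSON-3. *IFI44L* was at 1.12, -0.18 and 0.66, *MX1* and *PARP9* were likewise lowest with siDONSON-2, and *PLSCR1* was the other way, at -0.33, 1.11 and -0.71. Without siDONSON-2, 6 of 28 members were called higher (4.29% of all genes), namely *MX1*, *GBP1*, *UBE2L6*, *PARP9*, *DTX3L* and *IFI44L*, of which *MX1*, *GBP1* and *DTX3L* had a control not above background on both remaining arrays. Without siDONSON-1, *BST2* was called lower (1 of 27 members, 1.53% of all genes).

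With *LOXL2* edited, 3 of 27 tested members rose, *IFIT1*, *ISG15* and *LGALS3BP*, against 7.58% of all genes, and 0 fell, against 6.77% of all genes (limma). The rise was 3.04-fold for *IFIT1*, 1.74-fold for *ISG15* and 1.68-fold for *LGALS3BP*. The mean log2 ratio was above 0 in 16 of 27 members and in 53.4% of all genes, and its median was 0.12 over the members and 0.02 over all genes. Single values ran from -0.71 to 1.70. The lowest means were those of *MX1* (-0.49), *PLSCR1* (-0.48) and *IFITM2* (-0.38). *PLSCR1* was at -0.37, -0.55 and -0.51, so that the 3 arrays were alike, and its limma adjusted p was 0.324. *IFI6* had a mean of 0.52 (SE 0.28, limma adjusted p = 0.248). *SAMD9* was at 1.25, 0.32 and 0.08, but its control was not above background on any edited array and the bound of its fold change was below 1, so no rise can be read from these values. The share of members called higher, 11.1%, is near that of all genes and is not a result about the module. Without any 1 of the 3 edited arrays, 2 members were called higher, *IFIT1* and *LGALS3BP*, but not *ISG15* (1.67% to 2.05% of all genes).

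The *miR-150-3p* ratios were then set against the siDONSON ratios in the same fit. Both are transfections of short RNA duplexes, but the cell line and the duplex differ together and cannot be told apart. A dye bias of a probe cancels in this difference only if it is the same in both groups, which was not tested. Of 25 members tested, *IFITM1* and *MX1* had higher log2 ratios with *miR-150-3p* (2 members, against 1.13% of all genes) and 0 had lower ones (1.56% of all genes). The difference was 1.76 for *IFITM1* (SE 0.27, adjusted p = 0.0245) and 1.63 for *MX1* (SE 0.33, adjusted p = 0.0456) by limma. The *MX1* control was not above background on siDONSON-1 and siDONSON-3, so its difference may be smaller than 1.63 and could not be tested where both channels had to be above background. It passed in 2 of 8 fits without 1 array, and that of *IFITM1*, 1.04 with normexp and loess (adjusted p = 0.0786), in 5 of 8. At an unadjusted p below 0.05, 10 members were higher with *miR-150-3p* (10.4% of all genes) and 0 lower (12.6%). In 10 of the 25 members, both *miR-150-3p* arrays were above all 3 siDONSON arrays, which held for 15.5% of all genes. These were *IFIT1*, *IFIT2*, *IFIT3*, *IFITM1*, *IFITM2*, *IFITM3*, *MX1*, *GBP2*, *TRIM22* and *LGALS3BP*. For *TRIM22* the control was not above background in either squamous line, so it was valued there only through the treated channel. Its rise there is only known to be at least 1.95-fold over the 2 arrays, so its place in this count is not certain. The largest difference in size was that of *IFIT2*, 2.40 (SE 0.62), which did not pass the threshold (adjusted p = 0.0835), and *PARP9* and *DTX3L* were the 2 members with a difference below 0 (-0.19, SE 0.30, and -0.25, SE 0.23). The count of members with a higher ratio was 0 without EBC-1, siDONSON-3 or GE2 (0.0509% to 0.477% of all genes), 1 (*IFITM1*) without siDONSON-1, GE1 or GE3 (0.2% to 0.651%), and 7 without SK-MES-1 (5.68%).

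The control channel gives the level of the members in cells without the treatment, as the log2 signal minus the 75th percentile of its array, which can be compared between lines for a gene but not between genes. Of 38 members, 26 had their highest control level in EBC-1, 6 in SK-MES-1, 6 in SBC-3 and 0 in A549. The same count was not made over all genes, so whether this is particular to the members was not tested. The EBC-1 array also had the smallest share of control spots above background (41.1%). *ISG15* was at 6.45 in EBC-1, 5.67 in SK-MES-1, 3.00 in SBC-3 and 0.99 in A549, and *IFI6* was at 4.61, 1.89, 0.30 and -0.82. *MX1* was at 2.39 and 1.97 in the squamous lines but at -2.72 in SBC-3 and -2.66 in A549. *IFIT1* was the other way, highest in SBC-3 (6.07), then EBC-1 (3.74), SK-MES-1 (0.69) and A549 (-1.14). *IFITM1* was at 3.57 in SBC-3 and 3.15 in EBC-1, a small gap, and at -1.95 in SK-MES-1 and -3.79 in A549.

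These levels describe 1 array for each squamous line and 3 for the others, and differences between arrays other than the cell line were not tested. The 3 controls of SBC-3 ranged from 5.99 to 6.13 for *IFIT1* and from -2.96 to -2.33 for *MX1*, and those of A549 from -1.24 to -0.98 and from -2.69 to -2.61. The control was not above background for 2 members in EBC-1, 4 in SK-MES-1, 12 in SBC-3 and 14 in A549. *MX2*, *GBP1*, *RSAD2*, *SAMD9*, *IFI16*, *XAF1*, *LAMP3* and *RTP4* were not above background in the control of either SBC-3 or A549. Of the 14 members with a log2 ratio above 1 in EBC-1, 5 were among these (*MX2*, *GBP1*, *RSAD2*, *XAF1* and *RTP4*), and a missing value in SBC-3 or A549 does not show that they did not change.

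**Figure D4:**
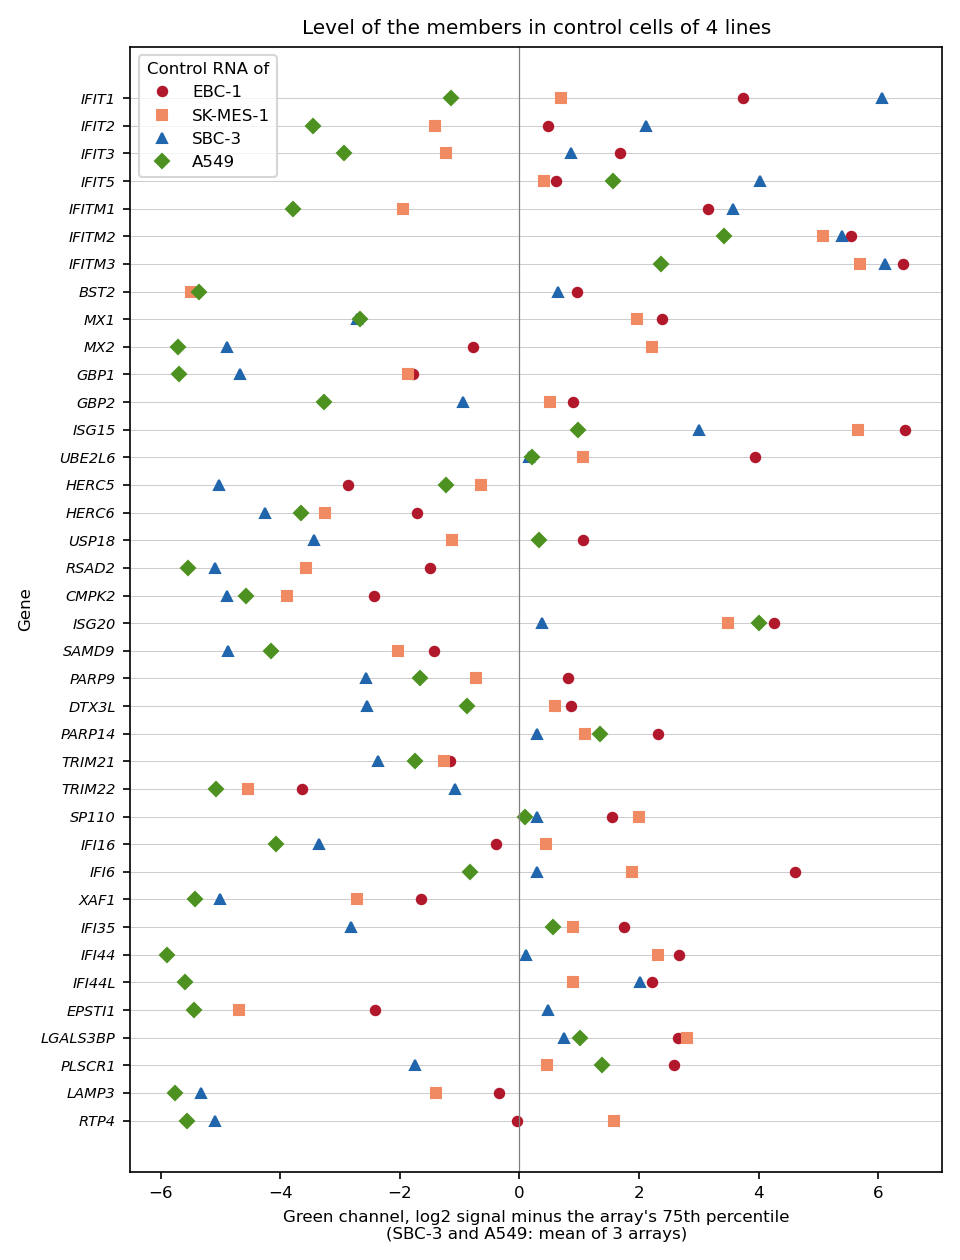
Green (control) level of the 38 members with a probe, as log2 signal minus the 75th percentile of the array, in EBC-1, SK-MES-1 (1 array each), SBC-3 and A549 (means of 3 arrays). EBC-1 is the rightmost point for 26 members, A549 for none, and values below about -4 are mostly not above background. The count was not made over all genes.

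The rest of the pathway was read from a list of 44 other genes, of which 43 had a probe. Among the ligands, *IFNB1*, *IFNG* and *IFNL3* were not above background on any array, and *IFNL1* had a value in EBC-1 only (-0.35). In the *miR-150-3p* arrays, 2 of 36 tested pathway genes were called higher, the receptor chain *IFNGR1* (mean 0.83, adjusted p = 0.0497) and the ISRE-binding factor *IRF9*, against 2.47% of all genes, and 0 lower, against 2.9% (limma). *IRF9* had log2 ratios of 1.13 in EBC-1 against 1.12 in SK-MES-1, of 0.53, 0.02 and 0.12 with siDONSON and of 0.67, 0.93 and 0.72 in the edited arrays. It was above 0 on all 8 arrays, with means of 1.13 (SE 0.14, adjusted p = 0.0167) and 0.77 (adjusted p = 0.00718) in the *miR-150-3p* and edited arrays, and its difference from siDONSON, 0.90, passed the test too (adjusted p = 0.0456).

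The RNA sensor *RIGI* was at log2 ratios of 1.32 and 0.52 with *miR-150-3p*, at 1.03, -0.01 and 0.79 with siDONSON, and at 0.22, 0.51 and 0.25 in the edited arrays. *OAS1*, which makes the activator of RNase L, was at 0.79 and 0.52 with *miR-150-3p* but fell in the edited arrays, at -1.73, -1.05 and -1.12 (mean -1.30, limma adjusted p = 0.00811).

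Of 36 pathway genes tested in the edited arrays, 4 rose, among them *IFNE*, *IRF9* and *MAVS*, against 7.58% of all genes, and 5 fell (*IFNGR2*, *EIF2AK2*, *CGAS*, *OAS1*, *OAS3*), against 6.77% of all genes. With siDONSON, 1 of 29 rose, the kinase *JAK1* (0.48, limma adjusted p = 0.0253), against 4.01% of all genes, and 0 fell, against 3.21%. The share of pathway genes called higher in the edited arrays, 11.1%, is near that of all genes, and these counts are not a result about the pathway. As single genes, *IFIT1* and *IRF9* rose there, and the sensors *OAS1*, *OAS3* and *EIF2AK2* fell.

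Markers of immune cells, which respond strongly to interferon, were above background in part. At least 1 of the 5 probes of *PTPRC* was above background in the control of every array. *CD3E* was so in the 3 SBC-3 controls and in 1 of the 2 squamous controls. *CD14* was so in both squamous controls and in the 3 A549 controls. With siDONSON the mean log2 ratio of *CD3E* was 0.80 (limma adjusted p = 0.0579). Of 5 immune genes with a probe, the B cell gene *MS4A1* was not above background on any array, and the summed control level of the list was 0.63 in EBC-1 against 0.75 in SK-MES-1 relative to the 75th percentile of the array, 0.34 to 0.39 in SBC-3 and 2.28 to 2.42 in A549, where *CD14* made up most of it. In EBC-1 the summed level was 1.97 times as high in the treated channel as in the control, with *CD14* at a log2 ratio of 1.69, and in SK-MES-1 1.07 times. On siDONSON-2, where 11 of 28 members were above 0, it was 1.88 times as high, on the other siDONSON arrays 1.30 and 1.35 times, and on the edited arrays 1.20 to 1.43 times. All samples were cell lines, so these sums describe the listed genes in the lines and not a share of immune cells. Their relation to the members was not tested.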

How the data were processed

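Total RNA of treated and control cells was hybridized to 8 Agilent two-color arrays (design 072363, annotated on hg19), 1 for each sample. The authors deposited the output of Feature Extraction 12.1.1.1 for each array. It holds intensities of both channels, a log10 ratio, and an error score of that ratio that the authors' software derived from its noise model, and the authors' processed intensities are background-subtracted and dye-normalized by that software. A deposited table of the series holds the same log10 ratios (largest difference 0). The p-values that the authors' software deposited were not used.

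The log2 ratio of treated (red) to control (green) was taken from the processed intensities in R 4.3.3. Control spots and 81 to 133 outlier spots of 60901 were left out, and 0 spots were saturated. Probes entered an array's data if either channel was well above background (27229 to 31785 of 58201 probes), and those of 1 gene were averaged. The number of arrays limits the precision. Of 50096 accessions, 24782 matched a current RefSeq symbol. limma 3.58.1 fitted 3 groups to all 8 arrays (5 residual degrees of freedom, fewer where an array had no value), each mean was tested against 0, and p-values were adjusted over all genes by Benjamini-Hochberg at 0.05. As every array carries the treatment in Cy5, a probe's dye bias is not removed by these tests. A gene that was not above background in the control channel on every array of a group has only a lower bound of its fold change, against the higher of its own signal and the lowest signal above background on the array. The fit was checked on simulated data. All 8 arrays share a slide, so no slide block was fitted.

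The members and lists were chosen with earlier results of these data known. Values on every array were given for members past the threshold and for the 3 highest and 3 lowest other means of each group, with further members added after their values were seen. Of the pathway list, the genes past the threshold and *IFNB1*, *IFNL1*, *IRF9*, *RIGI* and *OAS1* were given, and some listed genes are not reported here. Alternatives were another background correction (normexp with offset 50 on the median signals, since mean signals were not in the files used here, then loess), other filters, median centring, the brightest probe, other estimates of the spread, and leaving out each array.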

Additional observations from a re-analysis of the deposited data

Results flagged for a closer look

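*IFIT5* was the only member with values in both squamous lines and opposite signs there. Its log2 ratio was 0.634 higher on the EBC-1 array than on the SK-MES-1 array, and this difference was not tested, since each line has 1 array. The log2 ratios of *IFITM1* and *MX1* were higher with *miR-150-3p* than with siDONSON, by 1.76 and 1.63, past the limma threshold for the difference between the groups. The *MX1* control was not above background on 2 of the 3 siDONSON arrays, so its difference may be smaller, and it passed in 2 of 8 fits without 1 array. The cell line and the duplex differ together in that comparison and cannot be told apart.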

How the results depend on the processing

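The number of members called higher in the *miR-150-3p* arrays (5) became 11 with normexp and loess (5.69% of all genes, against 2.47%), 8 where both channels had to be above background (3.53%), 2 with no filter (0.285%), 0 with the spread of the group alone (0%) and 12 with the cell lines as groups of their own (8.34%). Leaving out 1 array gave 0 to 10 members, the 0 without EBC-1. With siDONSON, 1 member was called higher with normexp and loess (6.69% of all genes), 1 with the brightest probe (4.63%) and 1 with an intensity trend (4.72%), and 0 to 6 without 1 array (lower: 0 to 1). With *LOXL2* edited, the members called higher (3) became 6 with the spread of the group alone (19.5% of all genes), and 2 to 3 without 1 array. Those called lower (0) became 1 with normexp and loess (*PLSCR1*, 8.56% of all genes), 1 with no filter (*IFI44L*, not above background there, 17.4%), 1 where both channels had to be above background (*MX1*, 9.6%), 1 with the cell lines as own groups (*IFITM2*, 8.95%) and 5 with the spread of the group alone (18.4%), and 0 to 2 without 1 array. For the difference between *miR-150-3p* and siDONSON, the count (2) became 1 with normexp and loess (1.84% of all genes), 1 with both channels (1.47%), 0 with no filter (0.174%), 0 with the spread of the 2 groups alone (0%) and 5 with the cell lines as own groups (3.66%), and 0 to 7 without 1 array. The causes were not tested. A fit without 1 squamous array assumes that the lone array varies like the other groups.

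*IFIT1* and *LGALS3BP* in the edited arrays passed the threshold in 8 of 8 settings and without each of the 8 arrays in turn, though the log2 ratio of *IFIT1* fell from 1.61 to 0.85 with normexp and loess. For the edited arrays, the fits without EBC-1, without SK-MES-1 and with the cell lines as own groups give identical values and are not separate checks. *IFITM1* and *MX1* with *miR-150-3p* passed in 7 of 8 settings (not with the spread of the group alone, adjusted p = 0.307) and in 7 of 8 fits without 1 array (not without EBC-1). With *miR-150-3p*, *IFIT1* passed in 6 of 8 settings and 4 of 8 fits without 1 array, *IFIT3* in 5 and 2, and *USP18* in 4 and 1. *ISG15* in the edited arrays passed in 8 settings and in 5 of 8 fits without 1 array. The difference from siDONSON passed in 5 of 8 settings for *IFITM1* and in 5 of 7 for *MX1*. No called member changed its direction. The medians of the members on siDONSON-1, siDONSON-3 and GE3 fell just below 0 with no filter (-0.01, -0.01 and -0.10), and those on GE2 and GE3 where both channels had to be above background (-0.01 and -0.03). Under Aquantile scaling, 23 members had their highest control level in EBC-1, 6 in SK-MES-1 and 9 in SBC-3. Gene names from another column could not be tried, as the files used here hold none. No paired analysis was possible because the replicate numbers of the groups come from unrelated treatments, and each array already sets treated against control RNA.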
